A study of Mus musculus with 12 samples.

Results

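The genes described here encode the machinery of mitosis: the kinases that drive a cell into mitosis, the chromosomal passenger complex, the spindle checkpoint, the kinetochore, and the motors of the spindle. They are 38 genes chosen by name, each matched to the array through the RefSeq accession of its probes. Of the 38 genes, 37 had at least 1 probe (46 probes in all), out of 19259 named genes and 37246 probes on the array, and no probe matched Cdkn3. RNA came from livers of male wild-type C57BL/6 mice, 6 weeks old, taken 0, 1.5, 12 or 24 h after 2/3 partial hepatectomy (PH), an operation that removes most of the liver and leaves the rest to regrow. Each of the 4 time points had 3 mice and 3 arrays (1 colour, Cy3, Agilent), numbered as replicates 1 to 3. All mice were of the same strain, sex and age, and the 0 h livers were the only control. The labels name no sham-operated group, and the clock time of sampling is not given in the sources used here. The p-values measure the spread between these arrays.

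Hepatocytes of the adult liver rest outside the cell cycle and re-enter it after partial hepatectomy. Mitotic genes are repressed in resting cells and are switched on late, in G2 and M phase, by the MuvB complex together with B-Myb and Foxm1. This complex binds through the CHR, an element near the start of the gene, which often lies downstream of CCAAT boxes bound by the factor NF-Y. In regenerating mouse liver DNA synthesis is known to precede the first wave of hepatocyte mitosis.

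Promoters are shown because these elements are the textbook route of control of mitotic genes, and the 6 printed belong to members that passed the test in some comparison. RefSeq promoter windows (build GRCm38.p6, 250 bases before to 50 after the annotated start) were held for 32 of the 38 members, in 33 records. Ccna2, Cdc25c, Aurkb, Kif20a, Tpx2 and Foxm1 had none in that table. Each window was searched on both strands for the CHR, spelled TTTGAA or TTCGAA, and for the NF-Y box, spelled CCAAT. Capitals mark every match, and a match on the other strand reads TTCAAA or ATTGG. The windows are printed 5′ to 3′ on the strand of the gene, Hmmr at chr11:40733388-40733687 (minus strand), Birc5 at chr11:117848987-117849286 (plus), Cdca8 at chr4:124936868-124937167 (minus), Cenpa at chr5:30666636-30666935 (plus), Ccnb1 at chr13:100786437-100786736 (minus) and Cenpe at chr3:135212313-135212612 (plus).
Hmmr: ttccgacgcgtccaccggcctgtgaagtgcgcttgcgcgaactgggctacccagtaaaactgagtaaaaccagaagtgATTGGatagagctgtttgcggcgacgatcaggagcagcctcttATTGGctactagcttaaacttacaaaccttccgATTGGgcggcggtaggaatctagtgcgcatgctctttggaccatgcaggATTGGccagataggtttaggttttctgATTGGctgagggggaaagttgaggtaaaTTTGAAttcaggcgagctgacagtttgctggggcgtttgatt
Birc5: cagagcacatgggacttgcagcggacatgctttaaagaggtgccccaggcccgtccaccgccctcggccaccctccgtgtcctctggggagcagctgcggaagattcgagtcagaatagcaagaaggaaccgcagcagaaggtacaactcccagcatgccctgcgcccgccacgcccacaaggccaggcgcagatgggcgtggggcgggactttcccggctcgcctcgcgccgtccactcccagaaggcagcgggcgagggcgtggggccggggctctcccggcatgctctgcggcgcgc
Cdca8: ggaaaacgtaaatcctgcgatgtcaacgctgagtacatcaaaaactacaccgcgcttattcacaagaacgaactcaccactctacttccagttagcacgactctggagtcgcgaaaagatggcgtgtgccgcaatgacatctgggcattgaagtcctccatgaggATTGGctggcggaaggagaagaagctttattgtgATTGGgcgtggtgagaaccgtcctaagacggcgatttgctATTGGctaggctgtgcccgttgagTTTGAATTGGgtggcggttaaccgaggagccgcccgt
Cenpa: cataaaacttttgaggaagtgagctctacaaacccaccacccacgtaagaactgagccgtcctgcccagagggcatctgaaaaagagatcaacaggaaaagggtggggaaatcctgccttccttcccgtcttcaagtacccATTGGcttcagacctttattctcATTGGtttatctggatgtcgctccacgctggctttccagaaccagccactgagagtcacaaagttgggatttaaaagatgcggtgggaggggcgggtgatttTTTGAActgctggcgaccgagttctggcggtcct
Ccnb1: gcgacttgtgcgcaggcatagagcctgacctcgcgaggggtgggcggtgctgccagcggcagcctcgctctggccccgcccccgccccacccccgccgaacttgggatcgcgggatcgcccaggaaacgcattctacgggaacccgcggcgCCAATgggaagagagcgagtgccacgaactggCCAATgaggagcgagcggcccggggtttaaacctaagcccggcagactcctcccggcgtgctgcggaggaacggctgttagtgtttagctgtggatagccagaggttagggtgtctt
Cenpe: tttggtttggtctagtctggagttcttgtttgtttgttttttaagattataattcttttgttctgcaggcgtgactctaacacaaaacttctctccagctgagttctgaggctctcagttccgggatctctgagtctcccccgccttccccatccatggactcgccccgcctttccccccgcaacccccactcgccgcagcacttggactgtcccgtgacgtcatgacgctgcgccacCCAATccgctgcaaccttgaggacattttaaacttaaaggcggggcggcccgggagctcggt

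The CHR spelling was found in 25 of the 33 member windows (75.8%) and in 19.2% of all 32851 windows of this length. The NF-Y box was found in 27 of the 33 (81.8%) and in 37.4% of all windows. Both were present in 24 of the 33 (72.7%), against 7.52% of all windows, and in 1 window, that of Cdca8, the matches overlapped. The first base of the CHR match lay 8 bases after the start in Hmmr, 13 after it in Cdca8 and 16 after it in Cenpa, each with 1 or more NF-Y boxes upstream. Ccnb1 and Cenpe held NF-Y boxes and neither of the CHR spellings searched for in this window, as did Nek2. Birc5, Mad2l1, Melk, Nuf2 and Nusap1 held no match to either element as spelled here. Ndc80 held the CHR spelling alone. Other spellings of these elements were not searched, so a window without a match may still hold one. These matches describe letters, and binding was not measured.

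**Figure D1:**
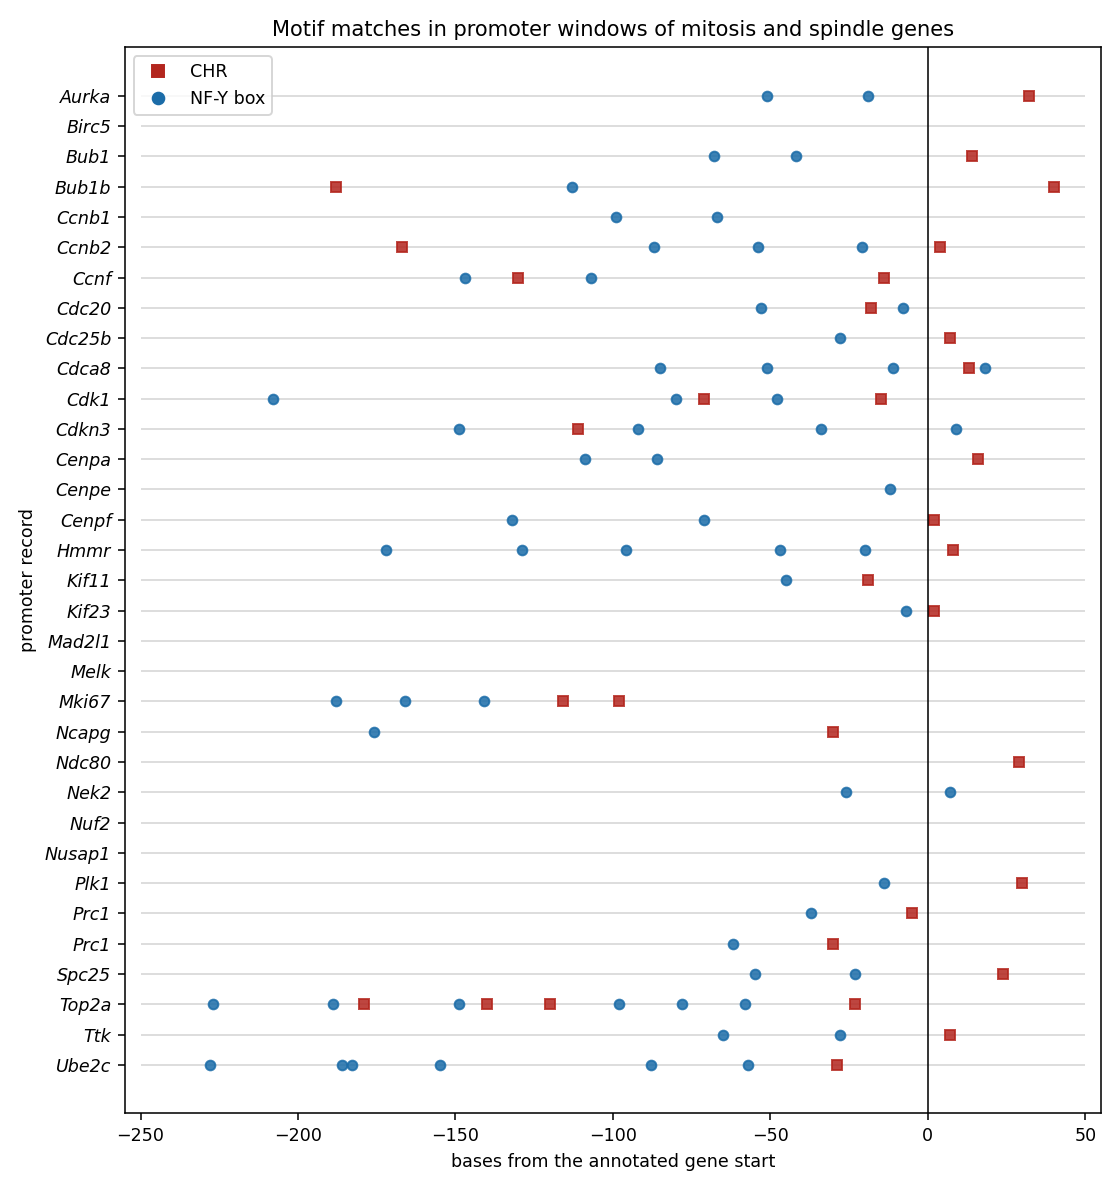
Matches to the CHR (squares) and the NF-Y box (circles) in 33 promoter windows of 32 mitosis and spindle genes, plotted by the distance of the first base from the annotated start in bases. CHR matches cluster around the start (median position -15) and NF-Y boxes lie further upstream (median position -68).

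Values below are log2 spot intensities set against each array's own 75th percentile, so 0 means as bright as that percentile and each unit is a doubling. A probe was tested where the scanner software called it well above background on at least 3 of the 12 arrays. In all 31168 probes passed, among them 37 of the 46 probes and 32 of the 38 genes. Where a gene had several probes the brightest one stands for it. Of the members, 19 were well above background on all 12 arrays and 13 on 3 to 11 of them. Nuf2 and Tpx2 were so on 1 or 2 arrays, and Melk, Cenpf and Kif20a on none. These 5 genes and Cdkn3 were not tested. Differences were tested with limma over all kept probes, and a gene was called at a Benjamini-Hochberg adjusted p under 0.05.

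The array of 24 h replicate 2 stood apart from the others. Its 75th percentile signal was 6210, against 443 to 599 on the other 11 arrays, and it held 540 outlier spots, against 19 to 40. The arrays were scanned in 4 sessions. The first held the 3 arrays of 0 h and 1.5 h replicate 1, the second 1.5 h replicates 2 and 3 with 12 h replicates 1 and 2, the third 12 h replicate 3 with 24 h replicates 1 and 3, and the fourth 24 h replicate 2 alone. No session held arrays of both 12 h and 0 h, or of both 24 h and 0 h, so time and scan are separated there only through the 1.5 h and 12 h arrays. The number of members well above background moved with the session. It was 32 of 37 (86.5%) on each of the 4 arrays of the second, and 22 to 29 (59.5% to 78.4%) on the others. Coding probes moved likewise, with 86.7% to 89.4% well above background on the arrays of the second session and 71.1% to 79.7% on the others. All 9 hepatocyte markers on the array were well above background in the 0, 1.5 and 12 h livers, and 8 or 9 of them in the 24 h livers. The 1 not counted was Cps1 on 24 h replicate 2, where its spot was dropped as an outlier. Counts below are given with and without 24 h replicate 2.

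**Figure D2:**
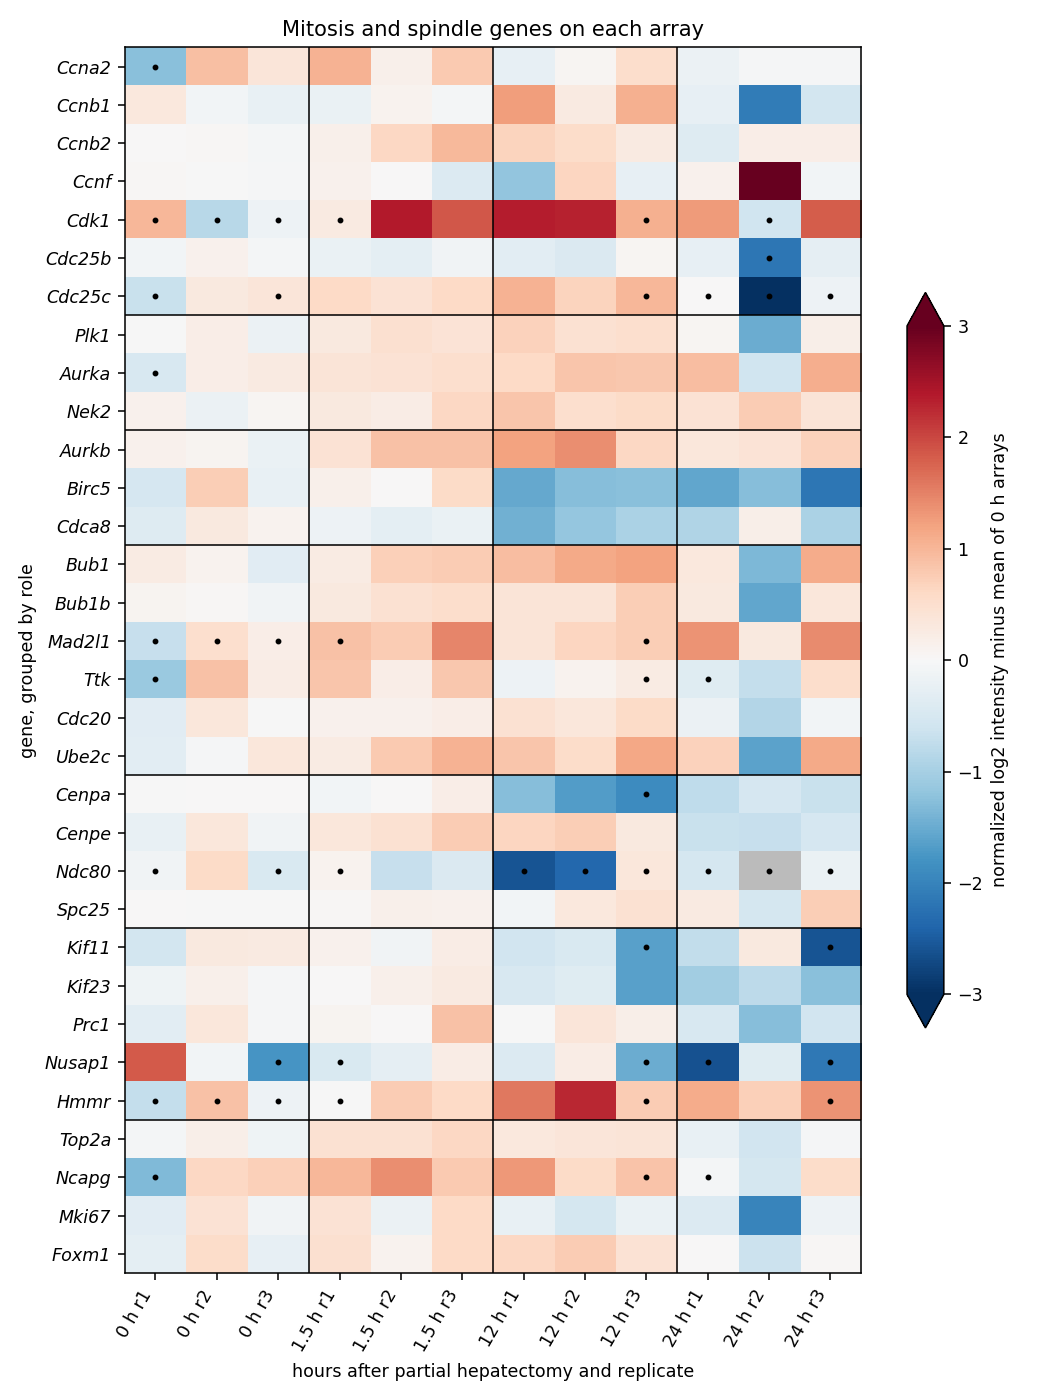
Normalized log2 intensity of the 32 tested mitosis and spindle genes on each of the 12 arrays, minus the mean of the 0 h arrays (colour, log2 units, limited at 3 in both directions), with genes grouped by role. Dots mark spots not well above background and grey a value dropped as an outlier spot. Birc5, Cdca8 and Cenpa are lower on all 3 arrays of 12 h, and the column of 24 h replicate 2 differs from its 24 h neighbours for Ccnf, Cdc25b, Cdc25c, Plk1, Bub1b and Ube2c.

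At 1.5 h against 0 h no member passed the test in limma. At an unadjusted p under 0.05, 3 members were higher (Aurkb, Mad2l1 and Top2a) and 0 were lower. At that level 2000 of all 31168 probes passed in either direction. Past the adjusted threshold, 0.0225% of all probes were higher and 0% lower. Without 24 h replicate 2 these shares were 0.507% and 0.0866%, and again no member passed. The median log2 fold change of the 32 genes was 0.39, against 0.07 over 19894 coding probes, and 26 of the 32 were above 0. Within the first scan session, which holds 1 array of 1.5 h and 3 of 0 h, 26 of the 32 were above 0 with a median of 0.24. These arrays are part of the comparison above. The matching values over coding probes were not computed for this session, so the count has no background to be read against.

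At 12 h against 0 h, 2 members rose and 3 fell. Aurkb and Hmmr rose, and Birc5, Cdca8 and Cenpa fell. That is 6.25% of the 32 tested members higher and 9.38% lower, beside 7.06% higher and 8.26% lower among all probes, so the count for mitotic genes was near the background in both directions. Without 24 h replicate 2, 11 members were higher (34.4%) and 4 lower (12.5%), beside 32.6% and 16.6% of all probes. The 11 were Ccnb1, Cdk1, Cdc25c, Plk1, Aurka, Nek2, Aurkb, Bub1, Bub1b, Ube2c and Hmmr, and the 4 were Birc5, Cdca8, Cenpa and Kif23. The median log2 fold change of the members was 0.47, against 0.24 over coding probes and 0.42 over all probes, with 18 of the 32 above the coding median. At 24 h against 0 h no member rose and 1 fell, Birc5 (3.12%), beside 2.84% higher and 2.62% lower among all probes. At an unadjusted p under 0.05, 3 were higher (Nek2, Mad2l1 and Hmmr) and 5 lower (Birc5, Cenpa, Cenpe, Kif23 and Prc1). At that level 6546 of all 31168 probes passed in either direction. Without 24 h replicate 2, Aurka and Mad2l1 were higher (6.25%) and Birc5, Cdca8, Cenpa and Kif23 lower (12.5%), beside 10.3% and 6.67% of all probes. Between 24 h and 12 h, Cenpa was higher at 24 h (3.12%) and Ccnb1 and Cenpe were lower (6.25%), beside 6.26% higher and 6.78% lower among all probes. Leaving out 24 h replicate 2 added Cdc25c to the lower ones (9.38%), beside 8.37% higher and 7.4% lower among all probes. The 24 h against 12 h comparison shares its arrays with the 2 comparisons against 0 h.

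**Figure D3:**
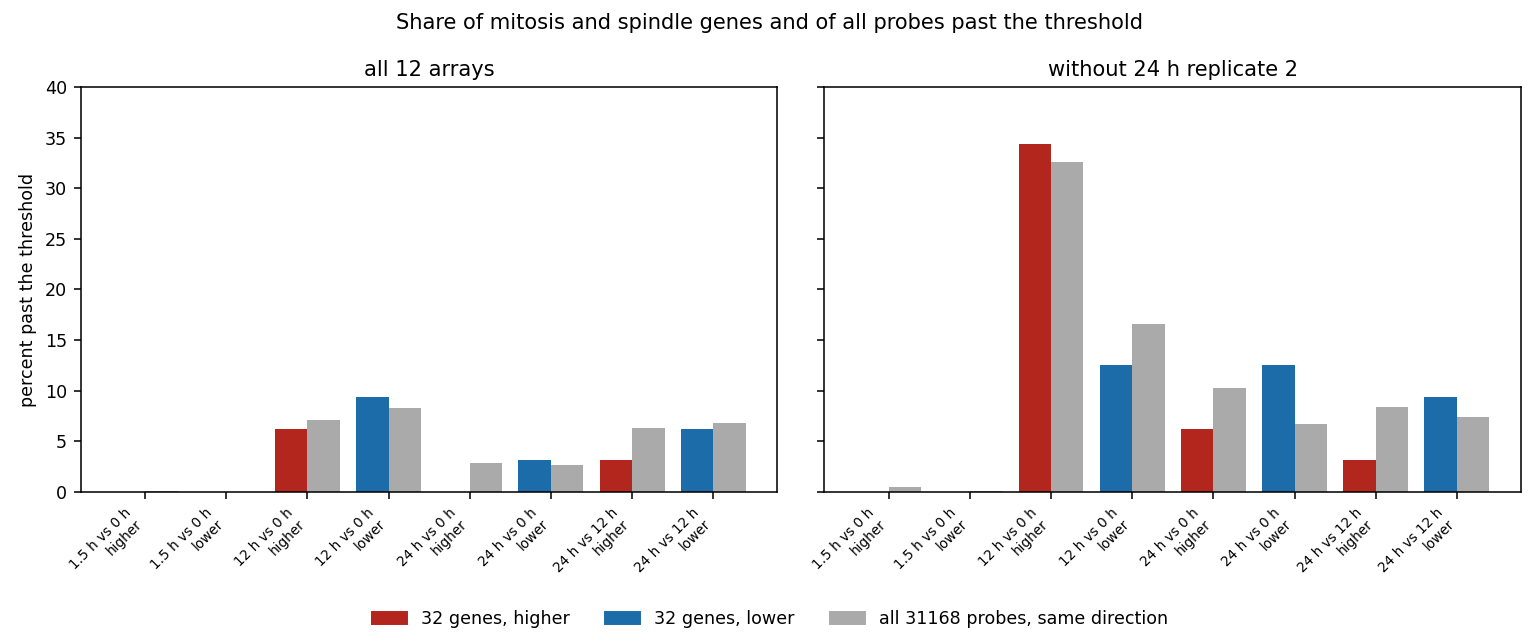
Percent of the 32 tested mitosis and spindle genes past an adjusted p of 0.05 (coloured bars) and of all 31168 probes in the same direction (grey bars) in 4 comparisons, with all 12 arrays (left) and without 24 h replicate 2 (right). At 12 h against 0 h the members stand at 6.25% higher against 7.06% of all probes, and at 34.4% against 32.6% without that array.

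The chromosomal passenger complex, which corrects faulty kinetochore attachments and acts in cytokinesis, moved in both directions at 12 h. Its kinase is Aurkb, and Birc5 (survivin) and Cdca8 (borealin) tether that kinase to the centromere. Aurkb stood at -3.82, -3.88 and -4.17 at 0 h, at -3.52, -3.08 and -3.08 at 1.5 h, at -2.75, -2.56 and -3.34 at 12 h, and at -3.63, -3.54 and -3.27 at 24 h. All 3 arrays of 12 h were above all 3 of 0 h, and the 24 h arrays lay above 0 h and overlapped with 12 h replicate 3 alone. Aurkb averaged -2.88 ± 0.41 at 12 h and -3.96 ± 0.18 at 0 h (SD, n = 3 each), a 2.10-fold rise (log2 1.07 ± 0.27 SE, limma adjusted p = 0.0242). The difference was 0.48 at 24 h against 0 h and did not pass (adjusted p = 0.349).

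Birc5 stood at -2.46, -1.22 and -2.16 at 0 h, at -1.79, -1.95 and -1.38 at 1.5 h, at -3.49, -3.22 and -3.21 at 12 h, and at -3.50, -3.22 and -4.11 at 24 h. The arrays of 12 and 24 h lay below every array of 0 and 1.5 h, with 24 h replicate 2 among them. Birc5 fell 2.56-fold at 12 h against 0 h (log2 -1.36 ± 0.36, limma adjusted p = 0.0277) and 3.16-fold at 24 h against 0 h (log2 -1.66 ± 0.36, adjusted p = 0.0243). A second Birc5 probe fell in the same direction, 4.00-fold at 12 h (adjusted p = 0.00865) and 4.76-fold at 24 h (adjusted p = 0.0122). In whole liver RNA, fewer cells of a type and less RNA per cell cannot be told apart.

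Cdca8 stood at -2.56, -1.89 and -2.07 at 0 h, at -2.32, -2.47 and -2.37 at 1.5 h, at -3.61, -3.33 and -3.11 at 12 h, and at -3.06, -2.00 and -3.11 at 24 h. The 12 h arrays lay below all 0 h arrays, as did 24 h replicates 1 and 3, and 24 h replicate 2 lay within the 0 h range. Cdca8 fell 2.26-fold at 12 h (log2 -1.18 ± 0.33, limma adjusted p = 0.0361). At 24 h its log2 fold change was -0.55 (adjusted p = 0.368), and -0.92 (adjusted p = 0.026) without 24 h replicate 2.

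Among centromere and kinetochore genes, Cenpa fell at 12 h and Cenpe differed between 12 and 24 h. Cenpa is the histone H3 variant that marks the centromere. Its values were -2.46, -2.42 and -2.44 at 0 h, -2.52, -2.42 and -2.24 at 1.5 h, -3.71, -4.11 and -4.32 at 12 h, and -3.19, -2.94 and -3.11 at 24 h. The groups of 12 and 24 h overlapped neither each other nor the earlier time points, and 12 h replicate 3 was not well above background. Cenpa averaged -4.05 ± 0.31 at 12 h and -2.44 ± 0.02 at 0 h (SD, n = 3 each), a 3.05-fold fall (log2 -1.61 ± 0.23 SE, limma adjusted p = 0.00145). It was 1.95-fold higher at 24 h than at 12 h (log2 0.97 ± 0.23, adjusted p = 0.0295), and 24 h against 0 h gave -0.64 (adjusted p = 0.14), or -0.71 (adjusted p = 0.042) without 24 h replicate 2.

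Cenpe is a kinesin that carries chromosomes to the spindle equator. It stood at -3.80, -3.22 and -3.67 at 0 h, at -3.23, -3.11 and -2.81 at 1.5 h, at -2.93, -2.83 and -3.26 at 12 h, and at -4.24, -4.25 and -4.05 at 24 h. The 24 h arrays were the 3 lowest of the 12. Cenpe was 2.26-fold lower at 24 h than at 12 h (log2 -1.18 ± 0.25, limma adjusted p = 0.0203), and neither time point passed against 0 h. Ndc80, a subunit of the outer kinetochore complex that grips microtubules, was dim. It was well above background on 1 array of 0 h, 2 of 1.5 h and none later. Its spot on 24 h replicate 2 was dropped as an outlier. At 12 h it was 1.42-fold lower than at 0 h over the detection floor, with overlapping groups. The limma test of the measured values gave an adjusted p of 0.147. Spc25, a subunit of the same complex, ranged from 0.10 to 0.65 at 12 h and from 0.17 to 0.19 at 0 h, and gave 0.24 at 12 h against 0 h (adjusted p = 0.586). Nuf2, a further subunit, was well above background on 1 array each of 12 h and 24 h. Cenpf, a kinetochore and nuclear matrix protein, was so on none.

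**Figure D4:**
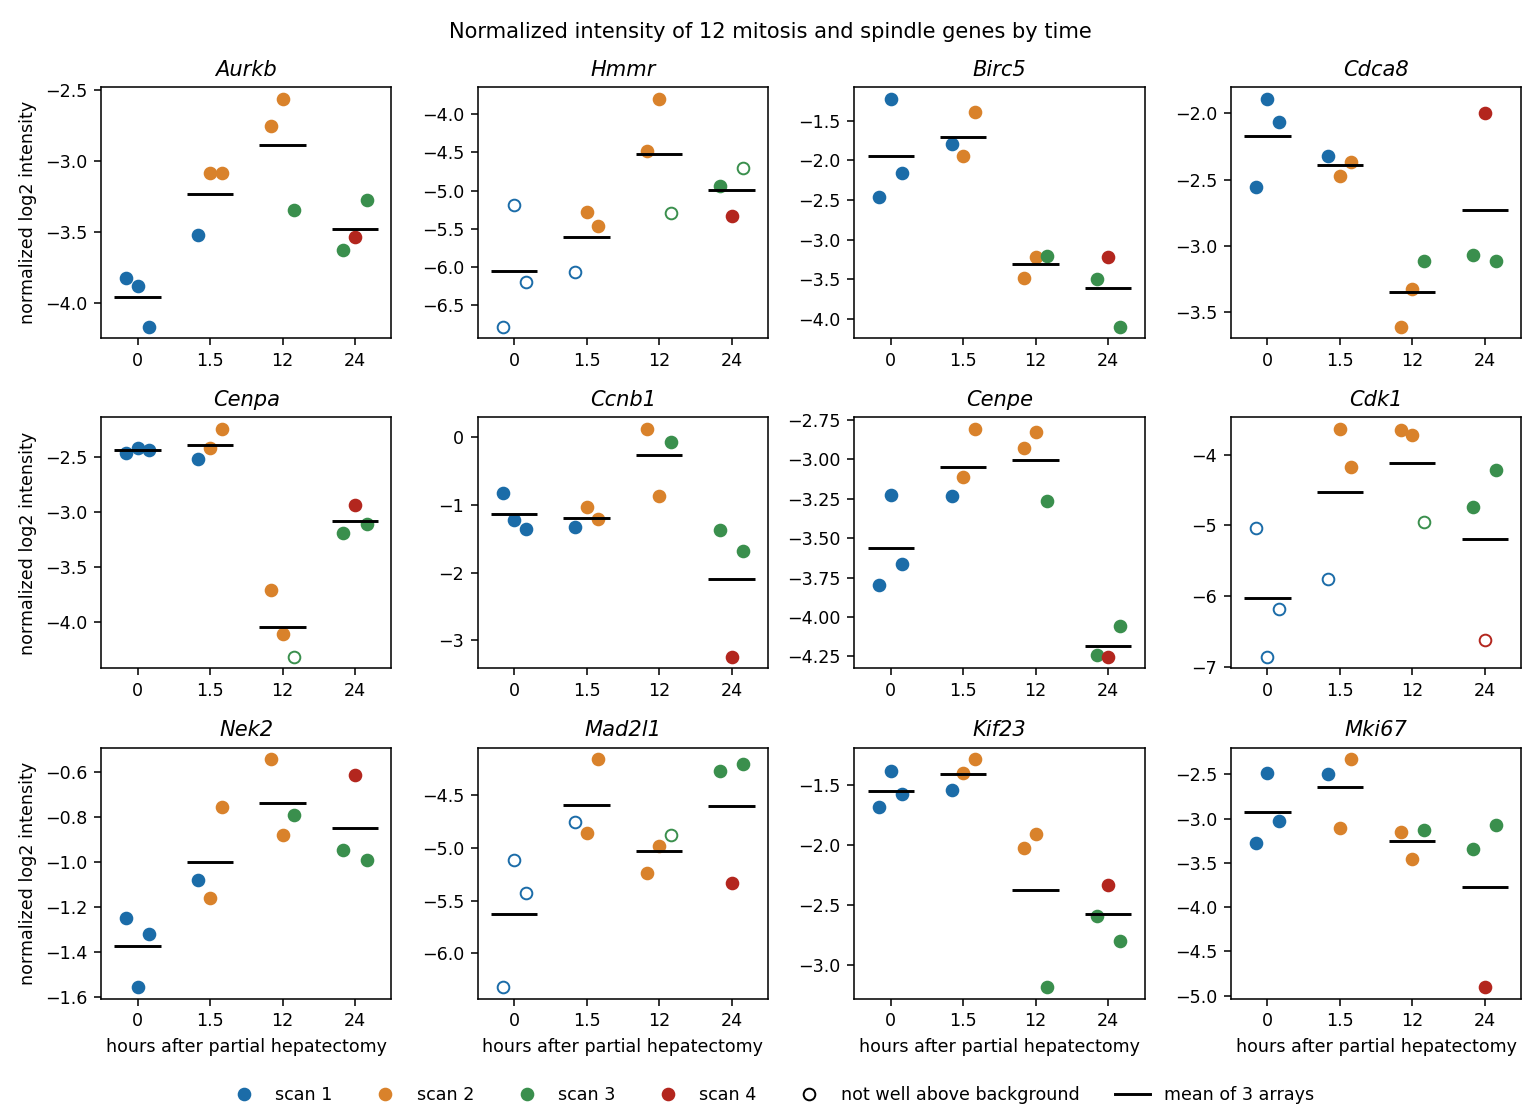
Normalized log2 intensity of 12 mitosis and spindle genes on each array by hours after partial hepatectomy, coloured by scan session, with open circles for spots not well above background and bars for the mean of 3 arrays. Cenpa drops at 12 h on arrays of 2 sessions, while Cdk1 is highest on the arrays of the second session at both 1.5 h and 12 h.

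Cdk1 and its partners open mitosis: Cdk1 is the kinase, Ccnb1 and Ccnb2 are its B-type cyclins, Ccna2 is the A-type cyclin, and Cdc25b and Cdc25c are the phosphatases that activate it. Ccnb1 stood at -0.83, -1.22 and -1.36 at 0 h, at -1.33, -1.04 and -1.21 at 1.5 h, at 0.12, -0.86 and -0.07 at 12 h, and at -1.37, -3.24 and -1.68 at 24 h. The 24 h arrays were below every other array, 24 h replicate 2 by a wide margin, and 12 h replicate 2 lay within the 0 h range. Ccnb1 was 3.55-fold lower at 24 h than at 12 h (log2 -1.83 ± 0.45, limma adjusted p = 0.0323), and 2.39-fold lower without 24 h replicate 2 (adjusted p = 0.0216). Against 0 h it gave 0.87 at 12 h (adjusted p = 0.204, or 0.0232 without that array) and -0.96 at 24 h (adjusted p = 0.256).

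Cdk1 stood at -5.03, -6.85 and -6.17 at 0 h, at -5.76, -3.64 and -4.17 at 1.5 h, at -3.66, -3.72 and -4.96 at 12 h, and at -4.74, -6.62 and -4.22 at 24 h. It was not well above background on any 0 h array and was so on 2 arrays at each later time point. The 4 highest values were its 4 arrays in the second scan session. With the 0 h arrays at their detection floor and the 12 h arrays as measured, 12 h was 1.66-fold higher. The limma test of the measured values, not of that fold, gave an adjusted p of 0.106 (0.0261 without 24 h replicate 2). Ccnb2 gave 0.49 at 12 h (adjusted p = 0.239) and 0.00 at 24 h (adjusted p = 0.997), and Ccna2 gave 0.12 and -0.08 with adjusted p of 0.866 and 0.941. Ccnf, an F-box protein of the cyclin family, stood at -0.54, 2.50 and -0.75 at 24 h, so that its group mean rested on 24 h replicate 2. Its log2 fold change at 24 h against 0 h was 1.08 with that array (adjusted p = 0.439) and 0.03 without it (adjusted p = 0.971). Cdc25b gave -0.23 at 12 h and -0.90 at 24 h, and its other probe 0.14 and -0.38. Cdc25c gave 0.90 at 12 h (adjusted p = 0.377). It was well above background on no 24 h array. Its values there were -5.16, -8.46 and -5.31, against -5.82, -4.88 and -4.79 at 0 h, so the groups overlapped. The 1.18-fold fall at 24 h against 0 h over the detection floor rested on 24 h replicate 2. The limma test of the measured values gave an adjusted p of 0.388.

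Of the mitotic kinases, Plk1 acts from entry to cytokinesis, Aurka matures the spindle poles, and Nek2 splits the centrosomes. All 3 tested had positive changes at 12 h against 0 h, between 0.55 and 0.75, and none passed with all 12 arrays. The median change was 0.24 over coding probes and 0.42 over all probes. Nek2 stood at -1.25, -1.55 and -1.32 at 0 h, at -1.08, -1.16 and -0.76 at 1.5 h, at -0.54, -0.88 and -0.79 at 12 h, and at -0.95, -0.62 and -0.99 at 24 h. The 0 h arrays were the 3 lowest of the 12. Its fold change was 1.55 at 12 h (adjusted p = 0.0928, or 0.0176 without 24 h replicate 2) and log2 0.52 at 24 h (adjusted p = 0.234). Aurka stood at -2.79, -4.30 and -2.62 at 24 h, against -4.19, -3.50 and -3.44 at 0 h. Its change at 24 h was 0.47 with all arrays (adjusted p = 0.537) and 1.00 without 24 h replicate 2 (adjusted p = 0.02). Plk1 gave 0.55 at 12 h (adjusted p = 0.331, or 0.0218 without that array) and -0.41 at 24 h. Melk, a kinase of dividing cells, was well above background on no array.

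The spindle checkpoint holds anaphase until every kinetochore is attached, and the anaphase-promoting complex then ends mitosis. All 6 tested genes of this group had positive changes at 12 h against 0 h, from 0.07 (Ttk) to 1.09 (Bub1). The median change was 0.24 over coding probes and 0.42 over all probes, and 5 of the 6 were above the coding median. None of the 6 passed with all 12 arrays. Bub1, a checkpoint kinase, stood at 3.45, 3.31 and 2.86 at 0 h, at 3.44, 3.92 and 3.96 at 1.5 h, at 4.13, 4.33 and 4.42 at 12 h, and at 3.51, 1.86 and 4.32 at 24 h. The 12 h arrays lay above those of 0 h and 1.5 h, and 24 h replicate 2 was the lowest of the 12. Its change at 12 h was 1.09 (adjusted p = 0.159, or 0.00797 without 24 h replicate 2), and a second probe gave 1.08 (adjusted p = 0.188).

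Mad2l1, the inhibitor that the checkpoint loads onto Cdc20, stood at -6.32, -5.12 and -5.43 at 0 h, at -4.75, -4.86 and -4.16 at 1.5 h, at -5.24, -4.98 and -4.88 at 12 h, and at -4.28, -5.34 and -4.20 at 24 h. It was well above background on no 0 h array and on all 3 of 24 h. Against 0 h its level at 24 h was at least 1.18-fold higher over the detection floor. The limma test of the measured values gave an adjusted p of 0.169 (0.0226 without 24 h replicate 2). Bub1b, the checkpoint partner of Bub1, gave 0.51 at 12 h and -0.31 at 24 h. Cdc20, the activator of the anaphase-promoting complex, gave 0.46 and -0.38, and its ubiquitin-conjugating enzyme Ube2c gave 0.85 and 0.08. Ttk, the kinase that starts the checkpoint signal, gave 0.07 at 12 h (adjusted p = 0.919) with the brighter of its 2 probes. The other was not well above background on any 0 h array and on 2 of 12 h, and no fold over the detection floor could be given (adjusted p = 0.0877).

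Among the spindle motors and microtubule-binding proteins, Hmmr rose at 12 h. Hmmr helps to focus the spindle poles. It stood at -6.78, -5.19 and -6.20 at 0 h, at -6.07, -5.28 and -5.47 at 1.5 h, at -4.48, -3.80 and -5.30 at 12 h, and at -4.95, -5.33 and -4.70 at 24 h. It was not well above background on any 0 h array, and 12 h replicate 3 was below the highest 0 h array, so the groups overlapped. With the 0 h arrays at their detection floor and the 12 h arrays as measured, 12 h was 1.25-fold higher. Of the 12 h arrays, replicate 3 was itself not well above background. The limma adjusted p of 0.049 tests the measured values, not that fold. Kif23, the motor of the central spindle in cytokinesis, stood at -1.68, -1.38 and -1.58 at 0 h, at -1.54, -1.40 and -1.28 at 1.5 h, at -2.03, -1.91 and -3.19 at 12 h, and at -2.60, -2.33 and -2.80 at 24 h. All arrays of 12 and 24 h were below all arrays of 0 and 1.5 h. Its changes against 0 h were -0.83 at 12 h (adjusted p = 0.115) and -1.03 at 24 h (adjusted p = 0.103), or 0.0433 and 0.042 without 24 h replicate 2.

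Prc1, which bundles the microtubules of the central spindle, gave 0.18 at 12 h and -0.78 at 24 h (adjusted p = 0.205). Kif11, the motor that pushes the poles apart, gave -0.89 at 12 h (adjusted p = 0.321) and a change at 24 h with an adjusted p of 0.379, where its 3 arrays ranged from -6.22 to -3.33. Nusap1, a microtubule bundler, gave -0.56 at 12 h and -1.70 at 24 h, with 0 h values of -2.79, -4.72 and -6.40. Of its 2 probes the other gave 0.07 and -0.75. The 5 probes of Tpx2, a spindle assembly factor, were well above background only at 12 h, on 1 or 2 arrays each. Kif20a, a motor of cytokinesis, was so on no array.

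The last group holds Top2a, which untangles sister chromatids, Ncapg, a condensin subunit, the proliferation marker Mki67, and Foxm1, the factor that switches on many of the other members. None of the 4 passed in any comparison. Mki67 stood at -3.27, -2.48 and -3.03 at 0 h, at -2.50, -3.10 and -2.33 at 1.5 h, at -3.16, -3.46 and -3.13 at 12 h, and at -3.34, -4.90 and -3.07 at 24 h. Its 12 h arrays lay within or just below the 0 h range, and 24 h replicate 2 was the lowest. Its change was -0.32 at 12 h (adjusted p = 0.608) and -0.84 at 24 h (adjusted p = 0.315), or -0.28 without that array. Foxm1 gave 0.61 at 12 h (adjusted p = 0.194) and -0.20 at 24 h (adjusted p = 0.744). Top2a gave 0.36 and -0.27, and Ncapg 0.91 and -0.01.

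**Figure D5:**
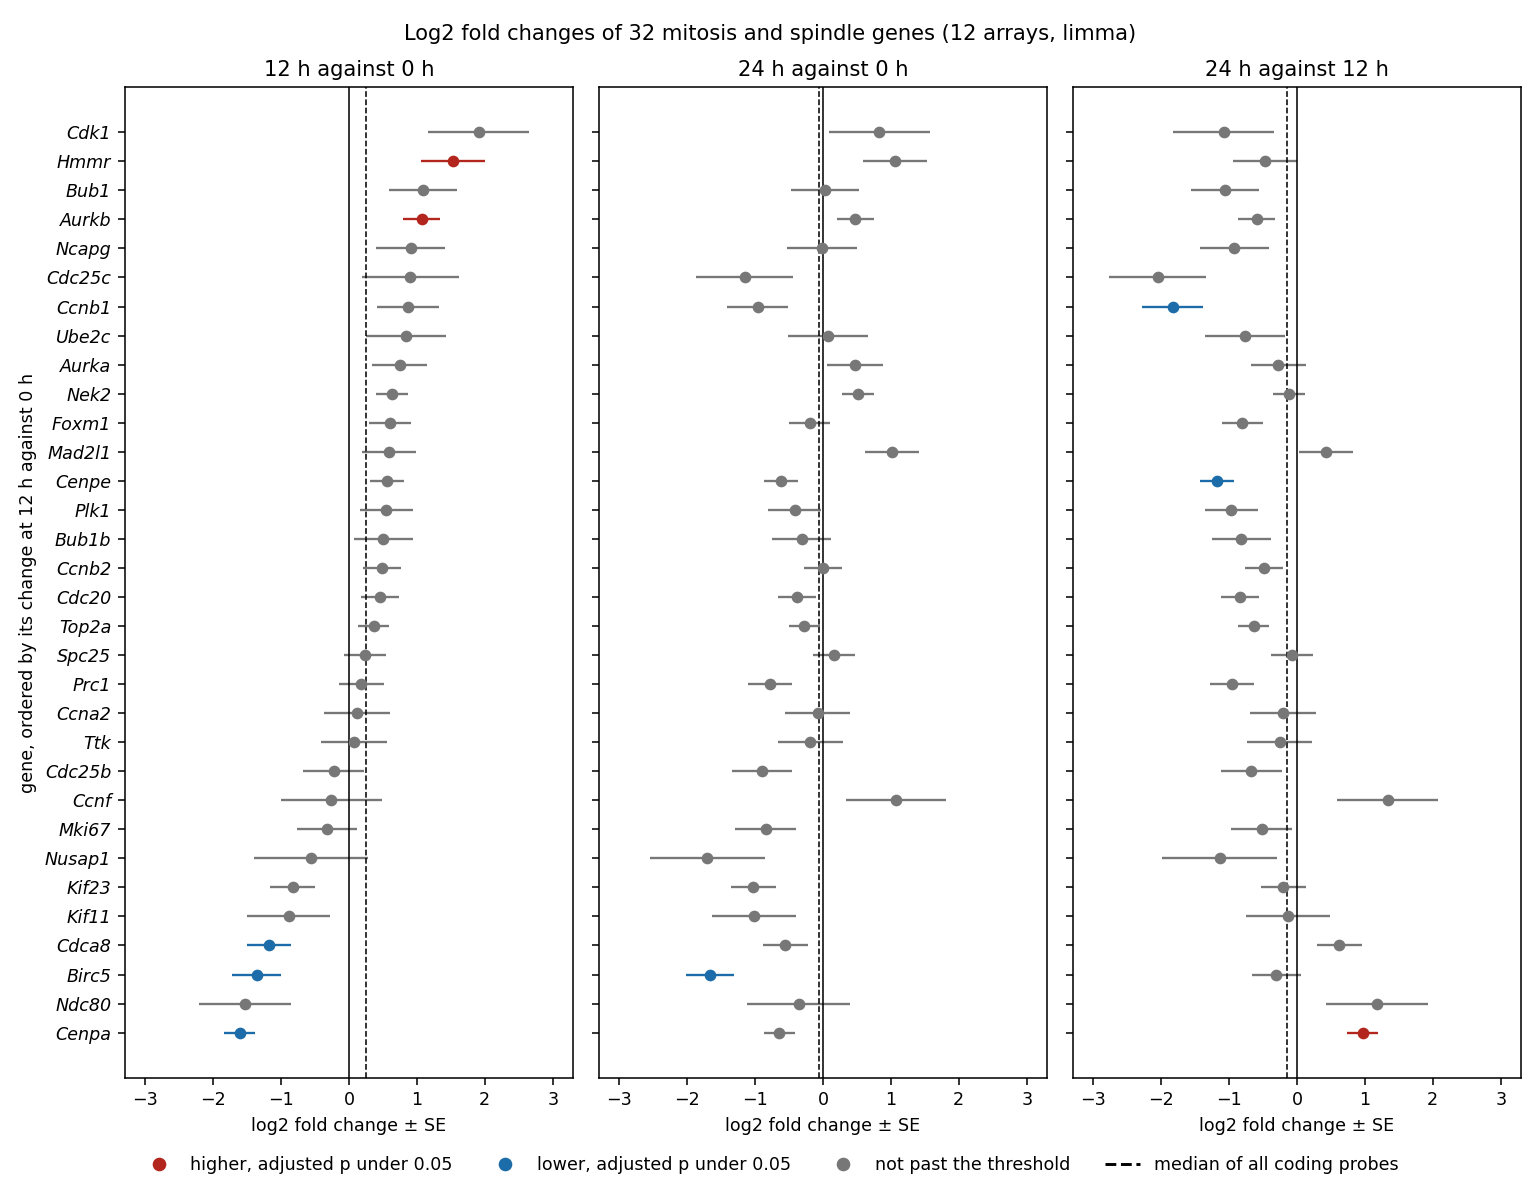
Log2 fold changes with standard errors of the 32 tested mitosis and spindle genes at 12 h against 0 h, 24 h against 0 h and 24 h against 12 h (limma, 12 arrays), with the median of all coding probes as a dashed line. Called genes are coloured: 2 higher and 3 lower at 12 h, 1 lower at 24 h, and 1 higher and 2 lower between 12 and 24 h.

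By group mean, 15 of the 32 genes were highest at 12 h and 12 at 1.5 h, and 18 were lowest at 24 h. Of coding probes, 39.8% were highest at 12 h, 15.8% at 1.5 h, and 35.2% were lowest at 24 h. Without 24 h replicate 2, 12 genes were highest at 12 h, 11 at 1.5 h, 13 were lowest at 24 h and 14 at 0 h, beside 38.9%, 15.1%, 21.9% and 33.8% of coding probes. No gene was lowest at 1.5 h in either count, beside 16.7% of coding probes in both.

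With scan session as a fixed block, Cenpa kept its call at 12 h against 0 h (-1.66, limma adjusted p = 0.0229) and at 24 h against 12 h (1.17, adjusted p = 0.0217). The other calls were lost: at 12 h Aurkb gave 0.86 (adjusted p = 0.154), Hmmr 1.23 (adjusted p = 0.38), Birc5 -1.53 (adjusted p = 0.222) and Cdca8 -1.20 (adjusted p = 0.108). Birc5 at 24 h gave -2.12 (adjusted p = 0.366). At 24 h against 12 h, where the third session alone holds both time points, Ccnb1 gave -1.46 (adjusted p = 0.0615) and Cenpe -0.88 (adjusted p = 0.0886). With scan as a random block instead, Ccnb1 and Cenpe kept these calls at 24 h against 12 h, and Cenpa kept its own. Under normexp background correction no member passed, and the changes of Birc5 (0.03) and Cenpa (0.09) at 12 h and of Cenpa between 12 and 24 h (-0.62) turned sign. The cause of that difference was not tested.

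Beside the 38 members, 104 further mitosis genes were listed, of which 94 were tested. At 12 h against 0 h, 3 of them rose and 13 fell, beside 7.06% higher and 8.26% lower among all probes. Without 24 h replicate 2 the counts were 19 higher and 22 lower, beside 32.6% and 16.6%. The inhibitory kinases that hold Cdk1 off were both lower: Wee1 averaged -1.86 at 12 h and 1.89 at 0 h, a 13.5-fold fall (limma adjusted p = 0.000474), and Pkmyt1 fell 4.15-fold (adjusted p = 0.0025). The phosphatase Cdc14b fell 5.48-fold and Cks2, a small subunit of Cdk complexes, fell 2.26-fold. Of kinetochore genes, Spc24 (5.29-fold), the Cenpa chaperone Hjurp (2.66-fold), Cenpn (2.52-fold) and Cenpk (2.49-fold) fell. Of cytokinesis and spindle genes, Kif22 (4.29-fold), Cit (2.34-fold) and Pbk (2.33-fold) rose and Ect2 fell 2.12-fold. The condensin subunits Ncapg2 (3.34-fold) and Ncapd3 (1.92-fold) and the cohesin protector Cdca5 (2.05-fold) fell.

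At 24 h against 0 h, 1 of the 94 rose and 4 fell, beside 2.84% higher and 2.62% lower among all probes. The counts were 4 higher and 7 lower without 24 h replicate 2, beside 10.3% and 6.67%. Mad2l2, a protein related to Mad2l1, rose 2.81-fold (limma adjusted p = 0.00824). Wee1 was still lower (4.42-fold, adjusted p = 0.0192), with Cdca5 (3.03-fold), Nsl1 of the kinetochore (2.43-fold) and Racgap1, the partner of Kif23 (2.43-fold). Relative to 12 h, 10 of the 94 were higher at 24 h and 2 lower, beside 6.26% and 6.78% of all probes, and 12 and 3 without 24 h replicate 2, beside 8.37% and 7.4%. Cks2 (4.15-fold), Pkmyt1 (3.65-fold), Cdc14b (3.64-fold) and Anapc1 (2.48-fold) were higher, as were Ect2 (2.57-fold), Cenpn (2.51-fold), Cenpp (2.18-fold), Cenpk (2.14-fold) and Ncapd3 (2.05-fold), and Pbk was 2.36-fold lower.

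Of 18 regulators of the mitotic programme, 4 rose and 3 fell at 12 h against 0 h, beside 7.06% and 8.26% of all probes. Without 24 h replicate 2 the counts were 5 and 4, beside 32.6% and 16.6%. Cdkn1a (p21, an inhibitor of cyclin-dependent kinases) rose 6.54-fold and E2f8 (a repressor of E2F targets) 2.46-fold. E2f2 fell 4.82-fold and Lin9, a core subunit of MuvB, 2.00-fold. At 24 h, E2f8 was 4.19-fold higher than at 0 h (limma adjusted p = 0.00301), the 1 of the 18 that passed with all arrays. Of all probes, 2.84% were higher and 2.62% lower there. Without 24 h replicate 2, E2f1 (adjusted p = 0.0205) and Cdkn1a (adjusted p = 0.0318) were higher as well, beside 10.3% of all probes. E2f2 (3.70-fold) and Lin9 (1.99-fold) were higher at 24 h than at 12 h, beside 6.26% of all probes. Of 27 tested DNA replication genes, 9 fell and 18 did not pass at 12 h, beside 8.26% of all probes lower. Once 24 h replicate 2 was left out, 13 were lower and 3 higher (Rrm1, Tyms and Ccne2), beside 16.6% and 32.6% of all probes. Those that fell included Tk1 (log2 -3.40), Lig1 (4.18-fold), Gmnn (3.48-fold) and Mcm6 (3.44-fold). At 24 h against 0 h, Tk1 (6.16-fold) and Uhrf1 (2.44-fold) fell, beside 2.62% of all probes. Without 24 h replicate 2, 4 were lower, beside 6.67%. Against 12 h, 7 were higher at 24 h and 2 lower, beside 6.26% and 6.78% of all probes. Among the 7 were Gmnn (2.72-fold), Mcm6 (2.48-fold) and Gins2 (2.47-fold). Without 24 h replicate 2 the counts were 9 and 2, beside 8.37% and 7.4%.

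Markers of other cells moved as well. The summed signal of 9 neutrophil markers, in multiples of the 75th percentile, was 1.59 to 2.15 at 0 h, 7.66 to 10.2 at 1.5 h, 29.8 to 37.1 at 12 h and 25.0 to 35.5 at 24 h. S100a8 rose 30.6-fold and S100a9 29.5-fold at 12 h, and 5 of 8 tested markers rose. Ngp, Ltf and Cxcr2 were not well above background on any 0 h array. The 7 erythroid precursor markers summed to 42.9 to 50.7 at 0 h, 49.9 to 59.9 at 1.5 h, 36.2 to 42.3 at 12 h and 46.8 to 62.8 at 24 h, and Epor (6.13-fold) and Car1 (3.63-fold) fell at 12 h. Lymphocyte markers (7 on the array) summed to 24.0 to 33.7 at 0 h, 29.3 to 47.9 at 1.5 h, 48.3 to 66.9 at 12 h and 7.89 to 45.9 at 24 h. A sum weighs the brightest marker most: at 0 h Nkg7 averaged log2 4.73 and the other tested lymphocyte markers 0.39 or less. At 12 h, Ms4a1 was the 1 of 6 tested that fell. Macrophage markers (7) summed to 15.7 to 29.0 at 0 h, 19.4 to 35.3 at 1.5 h, 18.7 to 34.8 at 12 h and 36.4 to 54.7 at 24 h. At 12 h, 1 of them rose (Marco, from log2 1.69 at 0 h to 4.13) and 2 fell. Of 8 endothelial markers tested 1 rose (Lyve1) and 1 fell (Kdr), and of 8 stellate cell markers 1 fell (Lrat). Of 5 bile duct markers tested 1 rose (Sox9), and of 9 hepatocyte markers 2 fell (Ttr and G6pc). Leaving out 24 h replicate 2, the counts at 12 h, higher and lower, were 6 and 0 for neutrophil, 1 and 3 for erythroid, 1 and 4 for macrophage, 2 and 1 for lymphocyte, 2 and 1 for endothelial and 1 and 4 for stellate cell markers, and those of bile duct and hepatocyte markers were the same. Among all probes at 12 h, 7.06% were higher and 8.26% lower with all arrays, and 32.6% and 16.6% without 24 h replicate 2. The part of these other cells in the values of the mitotic genes was not tested.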

How the data were processed

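Total RNA of 12 mouse livers was hybridised to 1-colour arrays. The deposited files hold the authors' scanner output, a processed spot intensity made with Agilent Feature Extraction 10.5.1.1 per the file headers, and a value table of log2 values by the authors, used as an alternative only. Here outlier spots were dropped, spots of a probe averaged, and log2 intensity centred on the 75th percentile of each array. Probes well above background on at least 3 of 12 arrays were fitted with limma 3.58.1 in R 4.3.3, with 1 mean per time point and Benjamini-Hochberg adjustment at 0.05, and the brightest kept probe stood for a gene. The number of arrays limits the precision.

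Values on every array are given for members past the threshold and for the member of each role with the smallest adjusted p at 24 h against 0 h, and Cdk1 and Bub1 were added after their values were seen. At most 4 genes of each further list and comparison and 2 of each marker list are named. The values of 1 DNA replication gene are not reported here. The members and lists were chosen with earlier results of these data known. Folds over the detection floor were used for a group not well above background on any of its arrays. Each value there was raised to at least the array's lowest signal well above background. Arrays of the other group kept their measured values. Such a fold is a lower bound only where all of those were well above background. The adjusted p given beside it tests the measured values, not that fold. Other background corrections, normalizations, filters, moderation, blocks and omitted arrays were tried. Same-numbered arrays did not deviate together (2 of 18 correlations over 0.1), so the numbers do not pair the samples. Promoter windows are RefSeq's (GRCm38.p6), and no array coordinate was used.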

Additional observations from a re-analysis of the deposited data

Results flagged for a closer look

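For 3 genes the change against 0 h differed between 24 h and 12 h (limma, 3 arrays per time point). The test is the 24 h against 12 h comparison already given, not a further one. The difference, 24 h minus 12 h, was -1.83 on the log2 scale for Ccnb1, 0.97 for Cenpa and -1.18 for Cenpe. All 3 arrays of 24 h lay below all 3 of 12 h for Ccnb1 and Cenpe, and above them for Cenpa. Each comparison rests on the same 0 h arrays, which cancel in the difference. With scan session as a fixed block Cenpa alone kept its call. In a fit of only the 2 groups compared none of the 3 did.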

How the results depend on the processing

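The main counts of members past the threshold, higher and lower, were 2 and 3 at 12 h against 0 h. For 24 h they were 0 and 1 relative to 0 h, and 1 and 2 relative to 12 h. At 1.5 h they were 0 and 0. Normexp correction left 0 in each, and turned the log2 change of Birc5 (0.033) and Cenpa (0.086) at 12 h and of Cenpa between 24 h and 12 h (-0.62). Over all probes it called 321 higher and 742 lower at 12 h, beside 2199 and 2576. Relative to 12 h it called 198 higher and 30 lower at 24 h, beside 1951 and 2112. Quantile normalization gave 0 higher at 12 h (8.31% of all probes) and 0 lower at 24 h against 0 h (3.46%). It gave 2 higher and 1 lower at 24 h against 12 h (9.65% and 7.46%). The authors' values gave 0 higher at 12 h (10.8% of the probes tested), and 0 higher and 1 lower at 24 h against 12 h (14.3% and 14.2%). With no filter, or 1 probe per gene, 1 was higher at 12 h (4.61% and 6.62% of the probes tested). The filter on all 12 arrays gave 1 higher at 12 h (8.11% of the probes tested). It gave 0 higher and 5 lower at 24 h against 12 h (11.5% and 11.4%). Robust moderation gave 0 higher at 12 h (6.61% of all probes). Scan as a fixed block, with or without 24 h replicate 2, gave 0 higher and 1 lower at 12 h. It gave 0 lower at 24 h against 0 h and 0 lower at 24 h against 12 h. In that order, the shares of all probes were 2.13%, 2.02%, 0.093% and 3.62%. Without 24 h replicate 2 they were 2.14%, 2.01%, 0.077% and 3.63%. Scan as a random block gave 0 higher and 1 lower at 12 h (3.82% and 4.65% of all probes). It gave 0 lower at 24 h against 0 h (0.334%). Array weights, whose estimate did not converge, gave 11 higher at 1.5 h (32.4% of all probes were higher), 15 higher and 5 lower at 12 h (44.5% and 20% of all probes), 8 higher and 8 lower at 24 h against 0 h (32.1% and 21.2%), and 4 higher and 14 lower at 24 h against 12 h (23.3% and 40.4%). A fit of only the 2 groups compared gave 10 higher at 12 h (33.8% of all probes) and 0 lower at 24 h against 0 h (0.18%). It gave 0 higher and 0 lower at 24 h against 12 h (0% and 0%). Without all 24 h arrays 11 were higher at 12 h (30.3% of all probes). The replicate block gave 1 higher at 12 h (4.88% of all probes), and 0 higher in the comparison of 24 h with 12 h (2.92%). The labels do not say that the replicate numbers pair the samples. The settings without all 24 h arrays and with scan as a block without 24 h replicate 2 were chosen after seeing the data. Centring on coding probes, also chosen then, gave 2 higher at 12 h (8.29% of coding probes). Causes of these differences were not tested.

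Leaving out each array in turn gave 0 to 11 higher and 1 to 4 lower at 12 h, 0 to 2 higher and 0 to 4 lower at 24 h against 0 h, and 0 to 1 higher and 0 to 7 lower at 24 h against 12 h. Over the same fits, 3.03% to 32.6% of all probes were higher and 4.18% to 16.6% lower at 12 h. At 24 h the ranges were 0.76% to 10.3% and 0.571% to 6.67% relative to 0 h, and 1.03% to 10.3% and 0.205% to 24.3% relative to 12 h. The counts of 11, 2 and 4 came without 24 h replicate 2, and that of 7 without 24 h replicate 3, where 24.3% of all probes were lower. The Cenpa call at 12 h passed in 12 of 12 such fits (limma adjusted p 0.000219 to 0.00994). The others passed in fewer: Aurkb in 7, Birc5 in 7, Cdca8 in 4 and Hmmr in 3 at 12 h, Birc5 in 9 at 24 h, and Ccnb1 in 5, Cenpa in 6 and Cenpe in 10 at 24 h against 12 h. Each of these 8 was lost without at least 1 array of the groups it compares. Dim members are limited by signal over background, since Cdk1, Mad2l1 and Hmmr were not well above background on any 0 h array.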
